A study of Homo sapiens with 12 samples.

Results

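Aminoacyl-tRNA synthetases are the enzymes that join each amino acid to its own transfer RNA. The set described here holds 35 of their genes, 19 that make the enzymes of the cytosol and 16 that make those of mitochondria, whose symbols end in 2. Members were taken by gene name from the table of PC3 cells, which lists 61221 genes, and found by gene identifier in the table of LNCaP cells, which lists 58735. All 35 were found in both, 17 of them under an older symbol in the LNCaP table (AARS for AARS1, for example). The rule uses gene names and no measured value, though the set was proposed with earlier results of these data known.

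LNCaP and PC3 are human prostate cancer cell lines, the first androgen-sensitive and the second androgen-independent. Cells of each line, labelled wild type, received either DMSO, the solvent, or 5 µmol/L of erastin. This compound blocks cystine import through system xc- and is used to start ferroptosis, a mode of cell death that depends on iron and lipid peroxidation. RNA-seq was done on 3 libraries in each of the 4 groups. No label says that replicates are separate cultures, so the p-values rest on a spread between libraries that may be technical. No label gives the time of exposure.

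Each synthetase first activates its amino acid with ATP and then passes it to the transfer RNA. The cytosol and the mitochondrion use separate sets of enzymes for most amino acids, nearly all encoded in the nucleus as different genes, while GARS1 (glycine) and KARS1 (lysine) each supply both compartments. When charging fails, uncharged transfer RNA activates the kinase GCN2 (gene EIF2AK4), which phosphorylates eIF2 and raises translation of ATF4, a transcription factor for amino acid synthesis, uptake and charging genes. ATF4 binds a composite C/EBP-ATF response element, and many cytosolic synthetase genes are known among its targets.

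The libraries held 13709558 to 17668554 reads in genes, and the members kept for testing rested on 87 to 12499 reads per library. Levels are FPKM, fragments scaled to gene length and sequencing depth, as the authors deposited them. The depth implied by FPKM, over the reads in genes, was 0.907 to 0.937 in PC3 under DMSO and 0.985 to 1.02 under erastin. In LNCaP this ratio was 0.871 to 1.07 under DMSO and 1.00 to 1.12 under erastin. A higher ratio lowers FPKM, and the summed levels given below were not rescaled. The tables of the 2 lines use different annotation releases, and the gene length of 5 members (FARSB, AARS2, LARS2, RARS2 and VARS2) differs by more than 1.1 times between them, so levels were not tested between lines and are set side by side as a description only. LNCaP markers summed to 916 FPKM under DMSO in LNCaP and to 6.75 in PC3, and PC3 markers to 608 in PC3 and 3.08 in LNCaP. With erastin each line's own markers summed to less, 306 FPKM in LNCaP and 89.3 in PC3. CTNNA1, a gene known to be deleted in PC-3 cells, was at 52.8 FPKM under DMSO and at 6.23 under erastin in the libraries labelled PC3, which goes against that label. Stromal, leukocyte and endothelial marker lists of 5 genes each summed to at most 4.48 FPKM, apart from the endothelial list in PC3, which stood at 30.02 under DMSO and 5.12 under erastin. KDR alone gave 28.9 and 4.17 of these sums, while PECAM1 was at 1.06 and 0.446 and CDH5, VWF and TIE1 were at or below 0.434. The part of these cells or genes in the results was not tested. The first DMSO library of PC3 stood apart from the other 2 on the second principal component (a score of 48.57 against -15.06 and -28.78). In it, 11 of the 19 cytosolic synthetases had the highest and 7 the lowest level of the 3 DMSO libraries, and results that turn on this library are given with and without it. In LNCaP, replicate 3 of both groups lay apart on the same axis (-29.70 and -31.08).

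Under DMSO, cytosolic synthetases were far more abundant than mitochondrial ones. In LNCaP the median cytosolic member stood at 48.2 FPKM and the median mitochondrial member at 9.37; in PC3 these medians were 47.7 and 5.59. AARS1 (alanine) led in LNCaP with 165.9 ± 8.35 FPKM (SD, n = 3), then GARS1 with 142.6 ± 26.7, SARS1 (serine) with 122.7 ± 23.5 and NARS1 (asparagine) with 114.7 ± 18.0. The ranges of GARS1, SARS1 and NARS1 over the 3 libraries overlapped, although GARS1 was the highest of them in each library. In PC3 the first places went to GARS1 with 178.7 ± 38.2, AARS1 with 138.2 ± 24.8 and NARS1 with 131.3 ± 33.7, and their ranges overlapped. HARS1 (histidine) was the lowest cytosolic member in both lines, with 12.4 ± 0.109 in LNCaP and 11.9 ± 1.26 in PC3. IARS2 (isoleucine) stood above all other mitochondrial members, with 59.2 ± 9.70 in LNCaP and 61.0 ± 11.2 in PC3, and YARS2 (tyrosine) was next with 19.7 ± 3.27 and 19.9 ± 1.88. Of 15 pairs of a cytosolic enzyme and the mitochondrial enzyme for the same amino acid, the cytosolic transcript was the higher in 14 in LNCaP and in 15 in PC3. The exception was histidine in LNCaP, where HARS1 was at 0.862 of the level of HARS2.

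Some members cannot be measured cleanly in these tables. SARS2 (mitochondrial serine) was at 0.0769 to 1.12 FPKM across the 12 libraries and was not kept for testing in either line. Of its span, 99.12% is covered by a second protein-coding gene on the same strand, AC011455.2, which was listed at 0. VARS2 (mitochondrial valine) stood at 8.94 ± 1.17 FPKM in LNCaP under DMSO but at 0.293 ± 0.115 in PC3, where the table adds a long non-coding gene, AL669830.2, over its whole span, and it was not kept there. The counting tool and its use of strand are not given in the sources used here. Reads of overlapping genes therefore cannot be told apart. MARS2, the mitochondrial methionine enzyme, is covered over 100% of its span on the same strand by AC011997.1. That gene was at 0 FPKM in LNCaP, and in PC3 at 0.068 under DMSO and 0.228 under erastin. HARS1 and HARS2 start head to head and overlap by 437 bases in the LNCaP table and 108 in the PC3 table. MARS1 (methionine) overlaps DDIT3, a stress-induced transcription factor gene, by 982 bases on the other strand. DDIT3 went from 43.9 to 25.3 FPKM with erastin in LNCaP and from 48.1 to 143 in PC3.

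The start regions of the genes were read for the core of the C/EBP-ATF response element, TGATGNAA, on both strands. RefSeq (GRCh38.p14) gave a window from 250 bases before to 50 after the start for 30 of the 35 members. AARS2, LARS1, VARS1, YARS1 and VARS2 had none. The motif was found in 7 of 16 cytosolic members with a window and in 1 of 14 mitochondrial ones, against 4.46% of the 27305 genes and 3.62% of the 35116 windows in the table. The form TTGCATCA or its complement TGATGCAA was in 6 members, against 1.08% of genes. The stretch of 60 bases around each match is shown because these 8 members are set against the others in the results that follow. Each runs 5′ to 3′ on the strand of the gene, and capitals mark the motif.
AARS1, chr16:70289660-70289719, minus strand: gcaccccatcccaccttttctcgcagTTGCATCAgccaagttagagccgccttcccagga
CARS1, chr11:3057392-3057451, minus strand: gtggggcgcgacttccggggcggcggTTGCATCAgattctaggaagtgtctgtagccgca
GARS1, chr7:30594819-30594878, plus strand: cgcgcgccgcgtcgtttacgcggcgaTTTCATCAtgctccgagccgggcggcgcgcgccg
IARS1, chr9:92293677-92293736, minus strand: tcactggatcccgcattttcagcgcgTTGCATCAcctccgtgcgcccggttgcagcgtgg
MARS1, chr12:57488038-57488097, plus strand: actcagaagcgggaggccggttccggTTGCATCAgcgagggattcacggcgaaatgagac
NARS1, chr18:57621789-57621848, minus strand: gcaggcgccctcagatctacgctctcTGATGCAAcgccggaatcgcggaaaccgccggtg
TARS1, chr5:33440941-33441000, plus strand: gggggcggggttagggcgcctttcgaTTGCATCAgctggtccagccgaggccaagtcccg
YARS2, chr12:32756061-32756120, minus strand: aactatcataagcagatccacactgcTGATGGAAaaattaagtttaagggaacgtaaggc
In CARS1, GARS1, IARS1, MARS1, NARS1 and TARS1 the motif began between positions -33 and 14 from the RefSeq start. In AARS1 it began at -187 and in YARS2 at -197. A match is a run of letters and does not show that a factor binds there.

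Most cytosolic synthetase transcripts fell with erastin in LNCaP, while most mitochondrial ones did not pass the test. Of 19 cytosolic members, 15 fell, against 17.7% of all genes tested, and the median change was -0.91 on the log2(FPKM + 1) scale, against -0.02 for all genes. Of 15 mitochondrial members kept, 3 fell (WARS2, EARS2 and CARS2), with a median of -0.18. Changes were tested with limma on log2(FPKM + 1), and a gene was called at a Benjamini-Hochberg adjusted p under 0.05 over the 13683 genes kept. No member rose, against 13.8% of all genes, none was higher at an unadjusted p under 0.05, and none rose by limma voom on recovered reads. In bulk RNA, fewer cells of a kind and less RNA per cell cannot be told apart. The summed level of the 19 cytosolic members was 1163, 1214 and 1423 FPKM in the DMSO libraries and 635, 586 and 689 in the erastin libraries. The sum of the 16 mitochondrial members was 189, 196 and 223 under DMSO and 173, 168 and 186 under erastin. The cytosolic groups lay far apart, while the highest mitochondrial erastin library came within 4 FPKM of the lowest DMSO library.

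The largest fall in LNCaP was that of GARS1 (chr7:30594838-30634033), the glycine enzyme of both compartments. It stood at 122, 133 and 173 FPKM under DMSO and at 41.9, 38.9 and 48.2 under erastin. The groups did not overlap, and replicate 3 was the highest in each. Its log2 change was -1.70 (SE 0.18, limma adjusted p = 0.00112).

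AARS1 (chr16:70252295-70289543), the highest member under DMSO, stood at 158, 175 and 165 FPKM and at 58.2, 57.6 and 54.9 with erastin. All erastin libraries lay close together, well under the DMSO libraries, for a log2 change of -1.53 (SE 0.13, limma adjusted p = 0.000501). VARS1 (valine, chr6:31777518-31795752) stood at 39.2, 46.4 and 50.6 FPKM and at 16.5, 16.2 and 15.8 with erastin. The groups were again apart, and the log2 change was -1.43 (SE 0.13, limma adjusted p = 0.000690). IARS1 (chr9:92210207-92293756), an isoleucine enzyme of the multisynthetase complex, was at 81.3, 75.2 and 74.2 FPKM under DMSO and at 27.7, 29.1 and 27.6 under erastin. This was a log2 change of -1.42 (SE 0.12, limma adjusted p = 0.000477), with little spread in either group. SARS1 (chr1:109213918-109238182) was at 103.8, 115 and 149 FPKM and at 50.6, 45.9 and 59.7 with erastin. Its lowest DMSO library was still above its highest erastin library, and the log2 change was -1.21 (SE 0.19, limma adjusted p = 0.00425).

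The other 10 cytosolic members that fell in LNCaP had log2 changes from -1.15 to -0.67. LARS1 (leucine, also known as a leucine sensor for mTORC1), TARS1 (threonine) and FARSB (one subunit of the phenylalanine enzyme) fell by 1.15, 1.11 and 1.01. YARS1 (tyrosine), MARS1, EPRS1 (a single protein for glutamate and proline), WARS1 (tryptophan), CARS1 (cysteine), NARS1 and FARSA (the other phenylalanine subunit) followed. Silencing CARS1 is known to protect cultured cells from erastin. CARS1 went from 13.8, 14.4 and 16.5 FPKM under DMSO to 8.76, 7.93 and 8.34, with groups apart and a log2 change of -0.76 (SE 0.11, limma adjusted p = 0.00345). The calls of FARSA and NARS1 were lost when DMSO library 2, erastin library 1 or erastin library 2 was left out.

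The 4 cytosolic members that did not pass in LNCaP were HARS1, KARS1, QARS1 (glutamine) and RARS1 (arginine). KARS1 was at 49.2, 50.9 and 71.0 FPKM under DMSO and at 37.2, 33.2 and 43.8 under erastin. Its groups did not overlap, and the log2 change of -0.56 (SE 0.19, limma adjusted p = 0.0639) lay just past the threshold; it passed with median-ratio scaling (limma adjusted p = 0.0495) and with protein-coding scaling (0.0155). HARS1 was at 12.5, 12.5 and 12.3 FPKM and at 15.0, 13.2 and 15.1, slightly higher in all 3 erastin libraries, at a log2 change of 0.20 (limma adjusted p = 0.196). QARS1 and RARS1 overlapped between groups, with log2 changes of -0.06 and 0.10 (limma adjusted p = 0.793 and 0.803). In all, 16 cytosolic members were lower in every erastin library than in any DMSO library, against 24.3% of all genes.

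Deviations of same-numbered LNCaP libraries correlated at 0.254, 0.347 and 0.744, though DMSO library 1 correlated more with erastin library 2 (0.612). With replicate number as a block, more LNCaP genes were called. Then 16 cytosolic and 5 mitochondrial members fell and 6893 of all genes were called, against 4312 without the block. KARS1 joined the cytosolic members (limma adjusted p = 0.00685), and FARS2 and NARS2, the mitochondrial phenylalanine and asparagine enzymes, joined the others (limma adjusted p = 0.0317 and 0.0135).

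**Figure D1:**
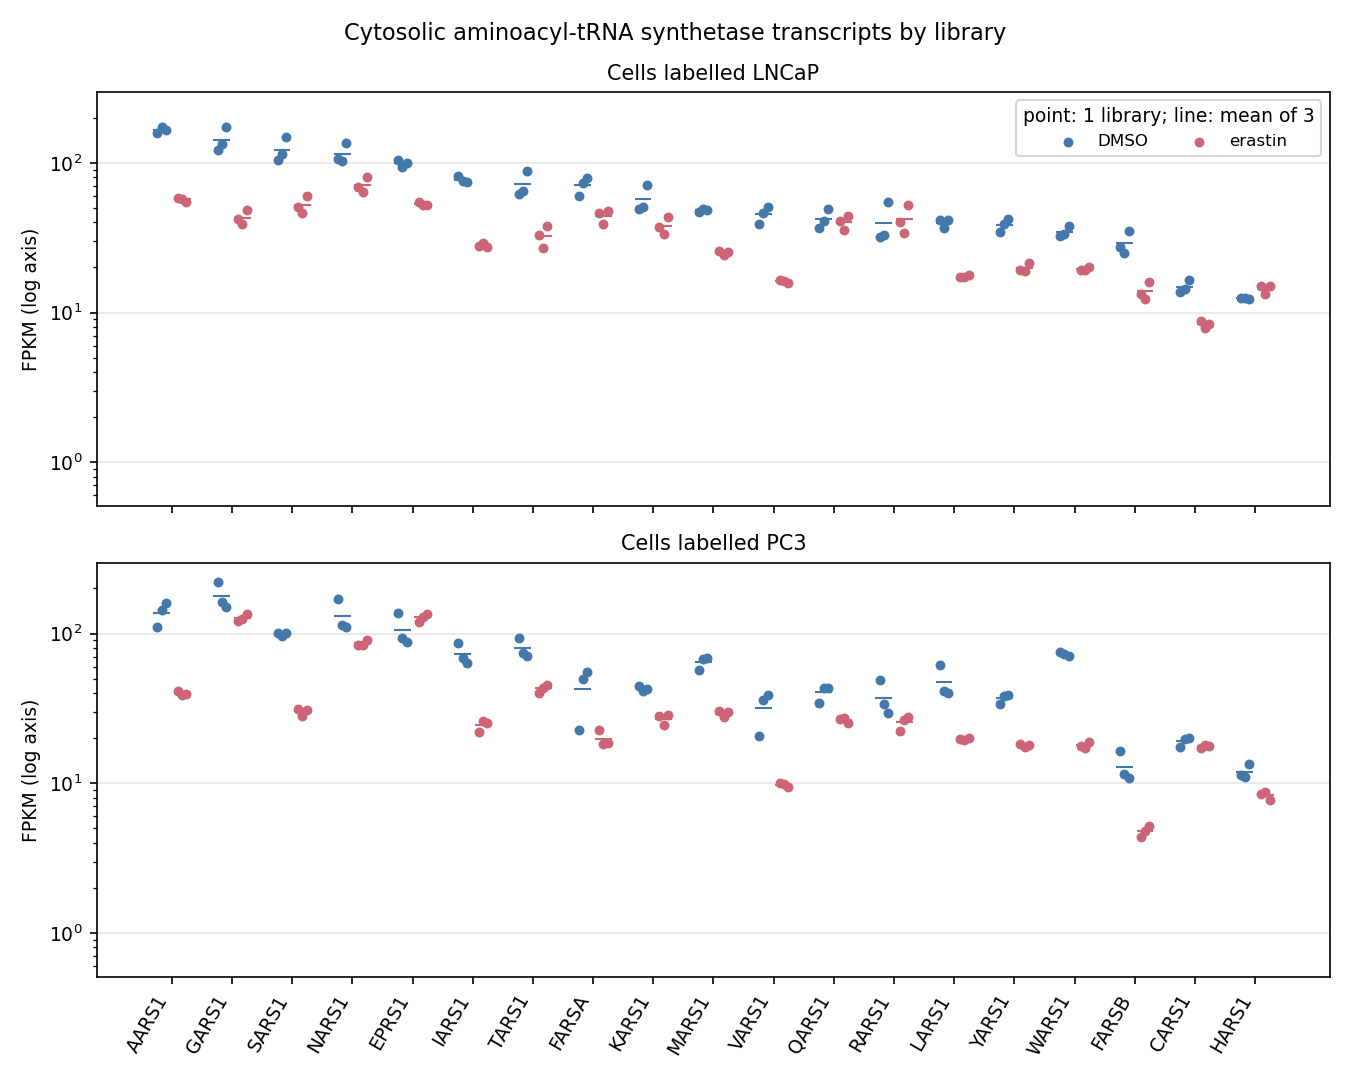
FPKM on a log axis of the 19 cytosolic synthetases in LNCaP (top) and PC3 (bottom); each point is 1 library, blue for DMSO and red for erastin, and each line is the mean of 3. Red points lie under blue points for most genes in both lines; HARS1, QARS1 and RARS1 in LNCaP and EPRS1 and CARS1 in PC3 do not follow this.

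In PC3, cytosolic synthetases fell as widely, and more mitochondrial ones fell than passed the test in LNCaP, against a background in which most genes differed. The PC3 erastin libraries held 30239 to 31311 genes above 0, and the PC3 DMSO libraries 25679 to 26144. Whether this bears on the synthetases was not tested. Of 19 cytosolic members 16 fell, against 32.4% of the 15371 genes tested, and the median log2 change was -0.98, against 0.00 for all genes. Of 14 mitochondrial members kept, 6 fell (IARS2, EARS2, LARS2, FARS2, WARS2 and YARS2) and 1 rose (RARS2, the arginine enzyme), against 34% of all genes that rose. The mitochondrial median was -0.22. With levels scaled to protein-coding genes, which moved the median of all PC3 genes up by 0.18, 4 mitochondrial members rose (RARS2, CARS2, MARS2 and TARS2) and 5 fell, and EPRS1 rose among the cytosolic ones. The summed cytosolic level was 1368, 1221 and 1217 FPKM under DMSO and 687, 694 and 730 under erastin. The summed mitochondrial level was 175, 158 and 157 under DMSO and 119, 109 and 116 under erastin. Neither sum overlapped between groups. IARS2 alone went from a mean of 61.0 to 21.7 FPKM, which was most of the fall in the mitochondrial sum (means of 163 and 115).

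WARS1 (chr14:100333790-100376805), the tryptophan enzyme, which is known to be induced by interferon gamma, fell most in PC3. It stood at 75.3, 72.8 and 71.3 FPKM under DMSO and at 17.8, 17.3 and 18.9 under erastin. Both groups were tight and far apart, with a log2 change of -1.96 (SE 0.10, limma adjusted p = 1.70e-05). AARS1 was at 110.9, 144 and 159 FPKM and at 41.4, 38.8 and 39.4 with erastin. DMSO library 1 was the lowest of its group and still far above the erastin libraries, for a log2 change of -1.75 (SE 0.15, limma adjusted p = 0.000103). SARS1 was at 102, 96.5 and 101 FPKM and at 31.5, 28.1 and 30.8 with erastin, a log2 change of -1.69 (SE 0.10, limma adjusted p = 2.95e-05). Its DMSO libraries agreed closely with each other, and so did its erastin libraries.

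VARS1 was at 20.8, 36.1 and 39.0 FPKM under DMSO and at 10.1, 9.93 and 9.40 under erastin. DMSO library 1 was far below the other 2 in level, yet lay above all erastin libraries, and the log2 change was -1.56 (SE 0.23, limma adjusted p = 0.00105). IARS1 was at 86.9, 69.0 and 63.5 FPKM and at 21.9, 26.01 and 25.4 with erastin. Here DMSO library 1 was the highest, and the log2 change was -1.54 (SE 0.15, limma adjusted p = 0.000165).

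The other 11 cytosolic members that fell in PC3 had log2 changes from -1.25 (FARSB) to -0.47 (GARS1). LARS1, MARS1 and YARS1 fell by 1.20, 1.11 and 1.00. FARSA, TARS1, KARS1, QARS1, NARS1 and HARS1 fell by less, from 0.98 down to 0.47. KARS1 overlaps TERF2IP on the other strand by 871 bases, and TERF2IP went from 12.4 to 69.7 FPKM with erastin in PC3. The 3 members that did not pass were RARS1, CARS1 and EPRS1. RARS1 was at 48.8, 33.7 and 29.3 FPKM under DMSO and at 22.4, 26.5 and 27.6 under erastin, apart by a narrow margin, with a log2 change of -0.50 (limma adjusted p = 0.0613). It passed without DMSO library 1, at -0.30 (limma adjusted p = 0.0425), and without DMSO library 3, at -0.66 (limma adjusted p = 0.0259). In all, 17 cytosolic members were lower in every erastin library than in any DMSO library, against 35.2% of all genes.

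The calls of FARSA, GARS1, NARS1 and HARS1 in PC3 were the least firm. GARS1 lost its call in 8 of 12 other settings, among them leaving out DMSO library 2 or any erastin library. Without DMSO library 1 its log2 change was -0.30 (limma adjusted p = 0.0124) in place of -0.47. With protein-coding scaling FARSA, GARS1, NARS1 and HARS1 all missed the threshold (limma adjusted p = 0.0755, 0.214, 0.118 and 0.101). NARS1 lost its call without any 1 of the 3 erastin libraries, and its log2 change was -0.37 in place of -0.57 without DMSO library 1 (limma adjusted p = 0.00247). HARS1 lost its call without erastin library 3, and FARSA without any library other than DMSO library 1.

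Among mitochondrial enzymes, those for glutamate and tryptophan fell in both lines. EARS2 (chr16:23522016-23557731) charges the mitochondrial glutamate transfer RNA and, as a first step, the glutamine one. In LNCaP it was at 10.4, 11.2 and 9.19 FPKM under DMSO and at 6.23, 6.11 and 4.77 under erastin, with groups apart and a log2 change of -0.75 (SE 0.13, limma adjusted p = 0.00693). In PC3 it was at 6.80, 5.93 and 6.28 FPKM and at 1.87, 1.97 and 1.40 with erastin, a log2 change of -1.42 (SE 0.13, limma adjusted p = 0.000131). With protein-coding scaling the LNCaP change of EARS2 missed the threshold (limma adjusted p = 0.0739). Every erastin library of EARS2 lay under every DMSO library in each line.

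WARS2 (chr1:119031216-119140671) was at 7.21, 6.45 and 9.33 FPKM in LNCaP under DMSO and at 3.76, 3.82 and 3.70 under erastin, a log2 change of -0.85 (SE 0.14, limma adjusted p = 0.00501). In PC3 it was at 4.49, 3.45 and 2.95 FPKM and at 1.88, 1.98 and 2.13, a log2 change of -0.62 (SE 0.15, limma adjusted p = 0.00939). The groups were apart in both lines, by more in LNCaP. CARS2, the cysteine enzyme, which is also known to make cysteine persulfides, was at 6.55, 7.14 and 8.25 FPKM in LNCaP and at 5.31, 5.22 and 5.60 with erastin. Its log2 change of -0.38 (SE 0.11, limma adjusted p = 0.0409) was lost when any library other than DMSO library 1 was left out.

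IARS2 (chr1:220094132-220148041), the highest mitochondrial member, was at 73.6, 57.3 and 52.2 FPKM in PC3 under DMSO and at 21.0, 20.2 and 23.8 under erastin. The groups were far apart, with a log2 change of -1.44 (SE 0.16, limma adjusted p = 0.000251). In LNCaP it was at 53.9, 53.2 and 70.4 FPKM and at 47.4, 44.5 and 55.4, where the groups overlapped (log2 change -0.26, limma adjusted p = 0.281). LARS2 (chr3:45388561-45554726), for leucine, was at 4.31, 4.48 and 4.24 FPKM in PC3 and at 2.18, 2.35 and 2.24 with erastin, a log2 change of -0.71 (SE 0.11, limma adjusted p = 0.000990). Its 3 values agreed closely within each PC3 group, whereas in LNCaP, at 9.59, 11.2 and 8.61 against 10.8, 10.2 and 9.96, the groups overlapped.

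FARS2 (chr6:5261044-5829192) was at 2.93, 3.71 and 3.83 FPKM in PC3 and at 1.98, 1.83 and 1.66 with erastin, a log2 change of -0.67 (SE 0.13, limma adjusted p = 0.00353). YARS2, the mitochondrial member with the motif, fell by 0.50 in PC3 (limma adjusted p = 0.00834, and 0.0526 with protein-coding scaling). YARS2 overlaps DNM1L on the other strand over 63.93% of its span, and DNM1L went from 16.8 to 9.13 FPKM.

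RARS2 (chr6:87513938-87589987) was the single member called higher in either line without rescaling and with all libraries in. It was at 8.83, 7.79 and 6.70 FPKM in PC3 under DMSO and at 16.1, 14.2 and 14.6 under erastin, a log2 change of 0.87 (SE 0.13, limma adjusted p = 0.00114). All erastin libraries lay well above all DMSO libraries. In LNCaP it was at 6.67, 5.83 and 8.21 FPKM and at 6.97, 6.54 and 8.41, with groups that overlapped.

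AARS2, HARS2, MARS2, NARS2, PARS2 and TARS2 passed in neither line, with log2 changes from -0.36 to 0.25. Without DMSO library 1 of PC3, AARS2 and PARS2 fell there too (limma adjusted p = 0.00976 and 0.00640), which brings the PC3 mitochondrial count from 6 to 8. Leaving out that library also raised the number of all genes that fell, from 4982 to 6169 of 15371.

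**Figure D2:**
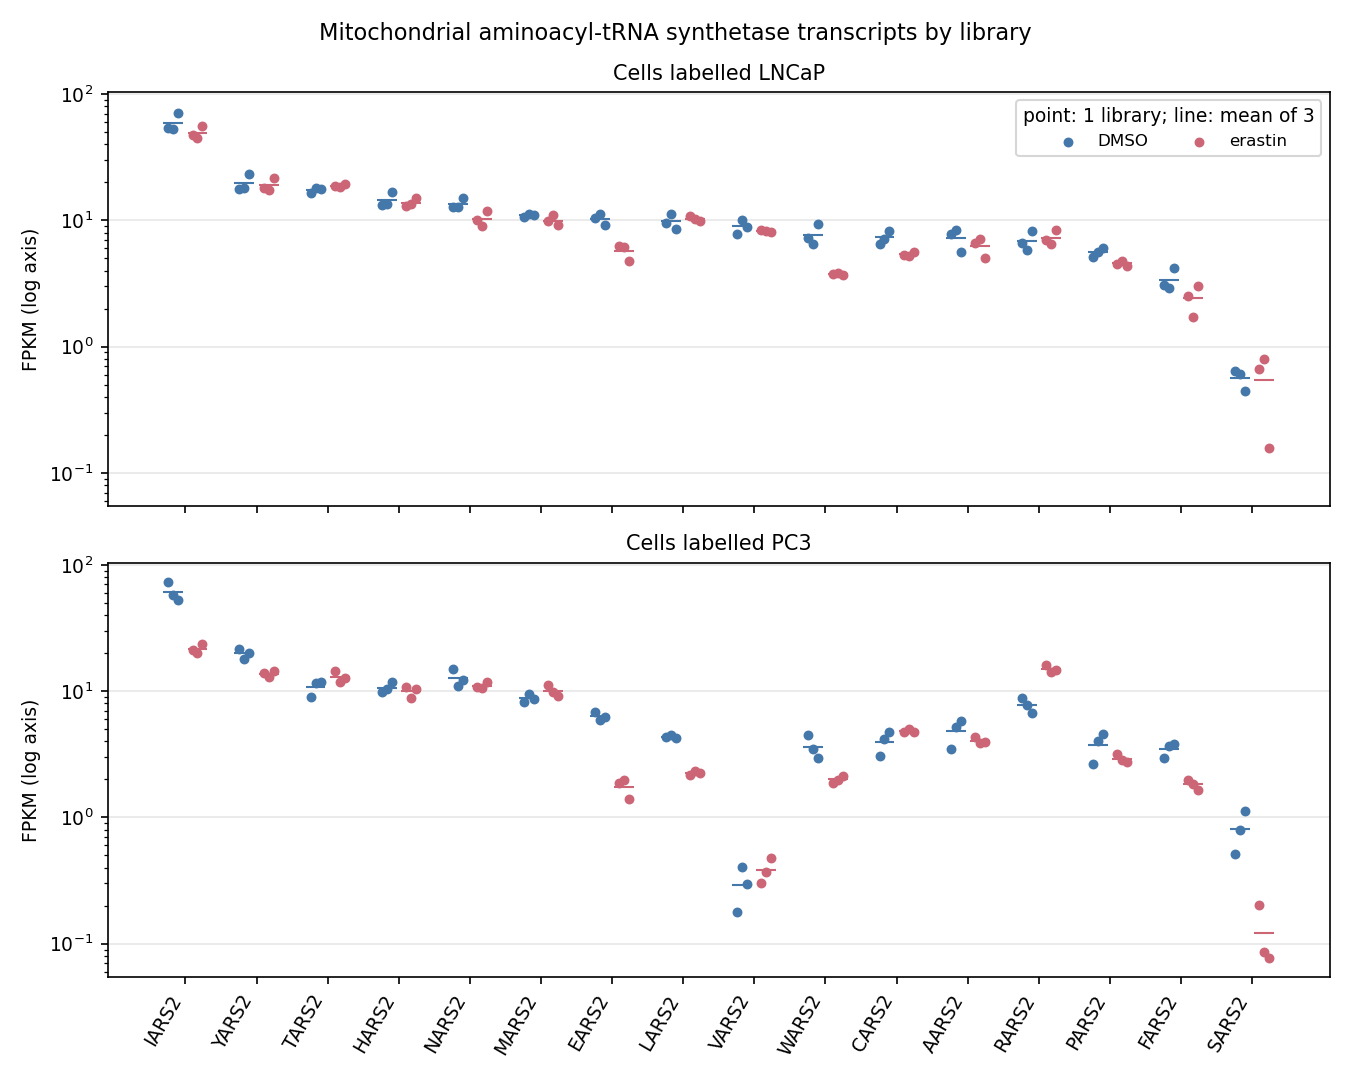
FPKM on a log axis of the 16 mitochondrial synthetases in LNCaP (top) and PC3 (bottom); each point is 1 library, blue for DMSO and red for erastin, and each line is the mean of 3. IARS2 is the highest in LNCaP and PC3, RARS2 in PC3 has all red points above the blue ones, and SARS2 in LNCaP and PC3 and VARS2 in PC3 lie near or below 1 FPKM.

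The cytosolic and mitochondrial enzymes for the same amino acid were set side by side. In LNCaP the cytosolic log2 change was below the mitochondrial one in 11 of 14 pairs with both kept, by a median of 0.71 in size (cytosolic minus mitochondrial -0.71, range -1.35 to 0.25). The exceptions were histidine, arginine and tryptophan. PC3 showed it below in 13 of 13 pairs, with a median difference of -0.50 and a range from -1.56 to -0.09. Pairs were made by symbol, which left out EPRS1 and its mitochondrial counterparts EARS2 and PARS2. In PC3 these go the other way, with 0.30 for EPRS1 against -1.42 for EARS2 and -0.25 for PARS2. In LNCaP EPRS1 changed by -0.88, against -0.75 for EARS2 and -0.25 for PARS2. On the log2(FPKM + 1) scale folds of weakly expressed genes come out too small, and most mitochondrial members were the weaker of their pair. Gaps are therefore too wide where a weak mitochondrial member fell. For leucine in PC3, the mean FPKM with erastin over that with DMSO was 0.415 for LARS1 and 0.519 for LARS2. Among the pairs made by symbol, alanine showed the widest gap on this scale in each line, since AARS2 changed by -0.18 in LNCaP and -0.19 in PC3. For isoleucine the gap was -1.16 in LNCaP and -0.09 in PC3. The pairs are genes and not replicates, and phenylalanine enters with both of its cytosolic subunits. The ratio of the summed cytosolic to the summed mitochondrial level was 6.14, 6.19 and 6.38 in LNCaP under DMSO and 3.68, 3.48 and 3.71 under erastin. The PC3 ratios were 7.83, 7.75 and 7.74 under DMSO and 5.79, 6.38 and 6.27 under erastin. Most of the PC3 mitochondrial fall that enters them was that of IARS2. Ratios under erastin were lower in every library of each line, and an exact test of 3 against 3 libraries cannot go below p = 0.1.

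**Figure D3:**
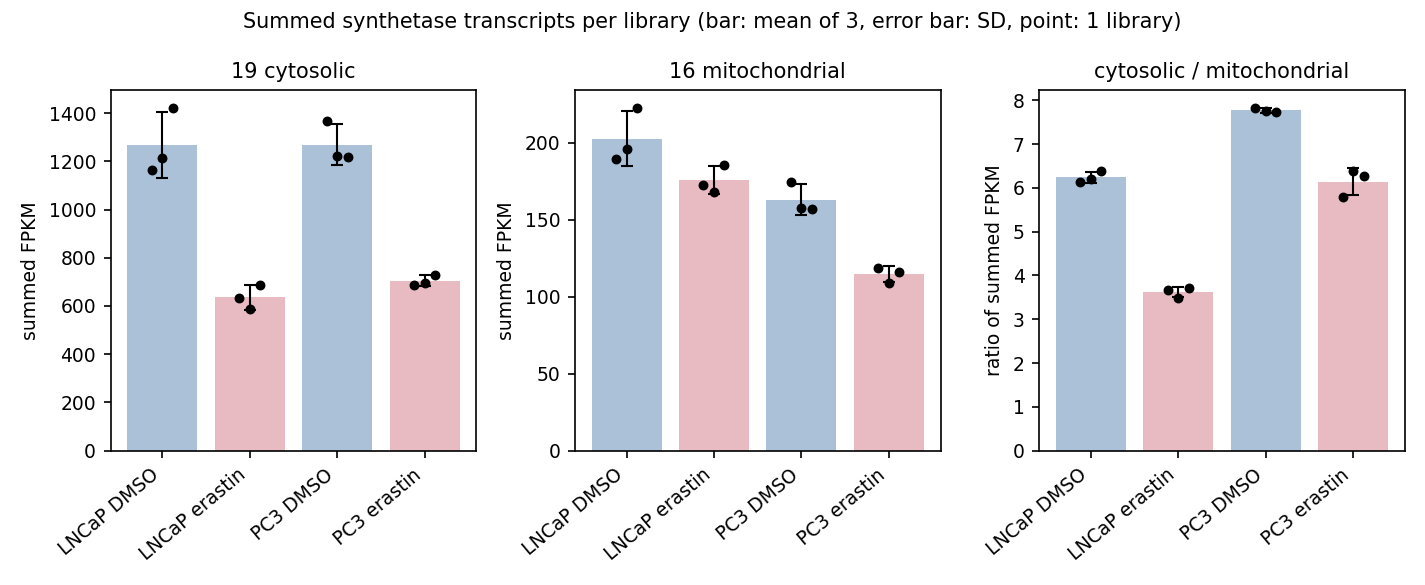
Summed FPKM of the 19 cytosolic members (left) and the 16 mitochondrial members (middle) and their ratio (right) in the 4 groups; bars are means of 3 libraries, error bars SD, and points single libraries. The cytosolic sum falls from a mean of 1267 to 637 FPKM in LNCaP and from 1269 to 704 in PC3, and the mitochondrial sum from 203 to 176 and from 163 to 115. Most of the mitochondrial fall in PC3 is that of IARS2, from a mean of 61.0 to 21.7 FPKM.

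Within the cytosolic set, a handmade list of 13 genes often named as ATF4 targets (AARS1, CARS1, EPRS1, GARS1, IARS1, LARS1, MARS1, NARS1, SARS1, TARS1, VARS1, WARS1 and YARS1) was compared with the other 6. The list was drawn up with earlier results of these data known, so its counts are a description only. The shares of all tested genes that fell, 17.7% in LNCaP and 32.4% in PC3, stand beside all counts of subsets here, and no test compared the subsets. In LNCaP 13 of 13 listed members fell, with a median log2 change of -1.11, and 2 of the other 6 (FARSA and FARSB), with a median of -0.31. In PC3 11 of 13 listed members fell, all but CARS1 and EPRS1, with a median of -1.11, and 5 of the other 6, with a median of -0.62. The 7 cytosolic members with the response element motif fell in 7 of 7 cases in LNCaP and 6 of 7 in PC3, the exception being CARS1. The 9 cytosolic members with a window but no motif fell in 5 and 7 cases. All 7 cytosolic members with the motif are also on the list of 13, so the 2 splits are not independent. EPRS1, SARS1 and WARS1 are on the list too, have a window without the motif, and fell in LNCaP. Of all tested genes with the motif, 23.8% fell in LNCaP and 43.9% in PC3, against 18.5% and 36.1% of those without it. ATF4 itself was at 251, 311 and 428 FPKM in LNCaP under DMSO and at 140, 121 and 182 under erastin, a log2 change of -1.14 (SE 0.26, limma adjusted p = 0.0170). This call was lost without DMSO library 2, erastin library 1 or erastin library 2 (limma adjusted p = 0.0600, 0.0749 and 0.0686). It was also lost with no filter (limma adjusted p = 0.0562). In PC3 it was at 213, 288 and 315 and at 239, 197 and 209, where the groups overlapped (log2 change -0.32, limma adjusted p = 0.145). Without DMSO library 1 it fell by 0.49 there (limma adjusted p = 0.00463). The ATF4 transcript does not measure the ATF4 protein, whose translation is regulated.

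A set of 7 cytosolic enzymes (EPRS1, IARS1, KARS1, LARS1, MARS1, QARS1 and RARS1) is held together in the multisynthetase complex. Of these 7, 4 fell in LNCaP and 5 in PC3, against 11 and 11 of the 12 cytosolic members outside it, where 17.7% and 32.4% of all tested genes fell. These subsets were not tested against each other. By catalytic class, 7 of 9 class I and 7 of 9 class II members fell in LNCaP, and 7 of 9 and 9 of 9 in PC3, with EPRS1 belonging to both classes and counted in neither. AIMP2, a scaffold of the complex, was at 41.4, 49.7 and 71.2 FPKM in LNCaP and at 20.8, 19.2 and 26.02 with erastin, a log2 change of -1.24 (SE 0.22, limma adjusted p = 0.00761). In PC3 it fell by 0.83 (limma adjusted p = 0.00137). EEF1E1, another scaffold, fell by 0.94 in PC3 (limma adjusted p = 0.00145), and AIMP1, the remaining one, passed in neither line (log2 change -0.68 and 0.39), while its difference between lines did (-1.07, limma adjusted p = 0.0124).

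The lines differed in the response of 10 of the 33 members kept in both, by the interaction in 1 limma fit over 11823 genes, of which 44.4% were called. Differences are given as the LNCaP change minus the PC3 change on the log2 scale. Among cytosolic members, GARS1 (-1.23, SE 0.26, limma adjusted p = 0.00258), EPRS1 (-1.18, SE 0.24, limma adjusted p = 0.00188) and CARS1 (-0.66, limma adjusted p = 0.00651) were lower in LNCaP relative to PC3. WARS1 (1.18, SE 0.17, limma adjusted p = 0.000139) and HARS1 (0.67, limma adjusted p = 0.00611) were lower in PC3 relative to LNCaP. Among mitochondrial members, IARS2 (1.18, limma adjusted p = 0.00189), LARS2 (0.79, limma adjusted p = 0.00170) and EARS2 (0.67, limma adjusted p = 0.0125) were lower in PC3 relative to LNCaP. RARS2 (-0.80, limma adjusted p = 0.00853) and CARS2 (-0.63, limma adjusted p = 0.0194) were higher in PC3 relative to LNCaP.

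EPRS1 (chr1:219968600-220046530) shows such a difference. In LNCaP it was at 104, 94.2 and 99.8 FPKM under DMSO and at 55.1, 52.4 and 52.6 under erastin, a log2 change of -0.88 (SE 0.12, limma adjusted p = 0.00303). In PC3 it was at 138, 93.9 and 87.2 FPKM and at 120, 129 and 136 with erastin, a log2 change of 0.30 (limma adjusted p = 0.197). The PC3 groups overlapped through DMSO library 1, and without that library EPRS1 rose by 0.50 (limma adjusted p = 0.00130).

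GARS1 in PC3 was at 222, 162 and 151 FPKM under DMSO and at 122, 125 and 136 under erastin, with groups that came close. WARS1 in LNCaP was at 32.2, 33.3 and 37.7 FPKM and at 19.29, 19.12 and 19.999 with erastin, a smaller fall than in PC3. CARS1 in PC3 was at 17.55, 19.87 and 20.001 FPKM and at 17.2, 18.1 and 17.9, where the groups overlapped. The other 23 members did not pass the test of the difference, which does not show that they responded alike. For AARS1, IARS1, KARS1, LARS1, MARS1, NARS1, VARS1 and YARS1, the changes in the 2 lines lay within 0.23 of each other on the log2 scale. In all, 15 members fell in both lines, 13 cytosolic ones plus EARS2 and WARS2. The share of all genes that fell in both lines was not computed. By line it was 17.7% in LNCaP and 32.4% in PC3. The correlation of the log2 changes between the lines was 0.450 across the 19 cytosolic genes and 0.511 across 14 mitochondrial genes, given as a description since genes are not independent.

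**Figure D4:**
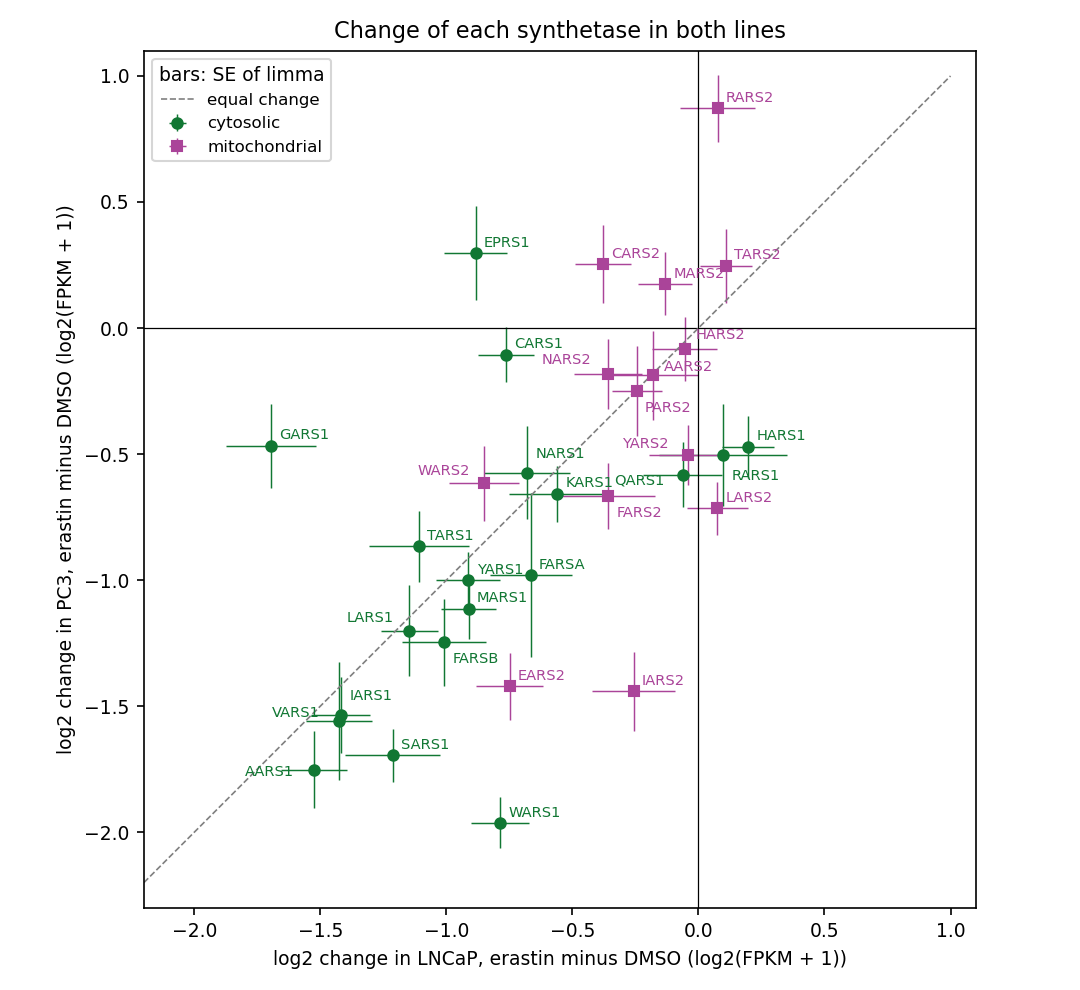
Log2 change with erastin in LNCaP (x axis) and PC3 (y axis) on the log2(FPKM + 1) scale for the 33 members kept in both lines; green circles are cytosolic, purple squares mitochondrial, bars are SE from limma and the dashed line marks equal change. Most cytosolic members lie at lower left near the line; GARS1 and EPRS1 lie above it, and WARS1, IARS2 and LARS2 below it.

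The other steps of charging and delivery were followed through handmade lists. XPOT, the exporter of transfer RNA from the nucleus, was at 104, 95.4 and 94.3 FPKM in LNCaP and at 34.96, 36.32 and 34.22 with erastin, a log2 change of -1.45 (SE 0.12, limma adjusted p = 0.000496). XPOT in PC3 was at 123, 85.8 and 76.1 FPKM and at 27.8, 30.9 and 31.3, a log2 change of -1.60 (SE 0.19, limma adjusted p = 0.000350). XPOT thus changed by about as much as the most affected cytosolic synthetases. Of the 21 genes of transfer RNA processing and export, 5 of 19 kept fell in LNCaP, while 10 of 21 fell and 5 rose in PC3. Of all tested genes 17.7% fell in LNCaP, and 32.4% fell and 34% rose in PC3. POP1, a subunit of RNase P, fell by 0.62 in LNCaP (limma adjusted p = 0.00753, and 0.0775 with protein-coding scaling) and by 1.80 in PC3.

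For the mitochondrial partners, MTFMT, which formylates the initiator methionyl transfer RNA, fell by 1.27 in PC3 (limma adjusted p = 0.000160). QRSL1 and GATB, subunits of the amidotransferase that completes glutamine charging after EARS2, fell there by 0.98 and 0.76, while GATC, the third subunit, rose by 0.46. In LNCaP GATB fell by 0.48 and the other 3 did not pass. The calls of GATC in PC3 and of GATB in LNCaP were each lost when any library other than DMSO library 1 was left out. Of the cytosolic elongation factors, which bring charged transfer RNA to the ribosome and move it on, EEF1A1, EEF1B2 and EEF2 fell in PC3 by 1.64, 1.70 and 1.13. Their log2 changes in LNCaP were -0.24, -0.89 and -0.54 (limma adjusted p = 0.639, 0.0752 and 0.111). EEF1G was listed at 0 in all 12 libraries. How its reads were counted is not known, so this 0 is not read as absence. EEF1D fell by 0.51 in LNCaP and rose by 1.07 in PC3, a difference of -1.58 (limma adjusted p = 0.00539). In PC3 it was at 7.25, 17.8 and 19.8 FPKM under DMSO and at 33.3, 30.1 and 26.9 under erastin, and without DMSO library 1 its log2 change was 0.65 (limma adjusted p = 0.00116). The PC3 call of EEF1D was lost without any 1 of the 3 erastin libraries, and the LNCaP call without erastin library 1 or 2 and with protein-coding scaling. Of 4 mitochondrial elongation factors, 3 were kept in PC3. There TUFM and GFM1 fell by 1.19 and 0.60, where 32.4% of all genes fell. GFM1 lost its call without any 1 of the 3 erastin libraries and with protein-coding scaling. TSFM was not kept in PC3, with means of 0.454 FPKM under DMSO and 0.805 under erastin. In LNCaP the log2 changes of TUFM, GFM1, TSFM and GFM2 were -0.40, -0.27, -0.65 and 0.17, with limma adjusted p-values of 0.216, 0.0797, 0.0792 and 0.369.

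DTD2, which removes amino acids wrongly joined to transfer RNA, fell by 0.59 in LNCaP and 0.86 in PC3, and its LNCaP call was lost without DMSO library 2 or 3 or erastin library 1 or 2. A further list held 13 genes of RNA polymerase III, the enzyme that makes transfer RNA, and of its factors. Of these, 3 fell and 1 rose in LNCaP, and 3 fell and 4 rose in PC3. Of all tested genes 17.7% fell and 13.8% rose in LNCaP and 32.4% fell and 34% rose in PC3. BRF2 rose in both lines, by 0.60 and 1.12, and its LNCaP call was lost without DMSO library 2 or erastin library 1. BRF1 passed in neither line, at 0.06 in LNCaP and -0.37 in PC3 (limma adjusted p = 0.747 and 0.157). POLR3F rose by 1.95 in PC3. In the sensing arm, EIF2AK4 and GCN1, which activates it, fell in PC3 by 1.01 and 1.31. EIF2S1, the eIF2 subunit that is phosphorylated, fell by 0.87 in LNCaP and rose by 0.68 in PC3; the LNCaP call was lost without erastin library 1 or 2.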

How the data were processed

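Per the labels' protocols, Trizol was used for RNA and an Illumina TruSeq RNA kit for the libraries. The counting tool is not given in the sources used here; HISAT2 version 2.0.5 and build hg38 are named in the submitters' processing notes. The authors deposited FPKM, 1 table per line, with gene lengths. Reads were recovered from them, since each library's FPKM times length came in equal steps: 100% of values above 0 were whole reads, to within 0.1.

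The scale was log2(FPKM + 1), on which folds of weakly expressed genes come out too small. A gene was kept in a line if 3 or more of its 6 libraries reached 1 FPKM, and erastin was compared with DMSO with limma version 3.58.1 (variance trend, two-sided, Benjamini-Hochberg over all genes kept) in R version 4.3.3. The limma interaction over all 12 libraries tested the difference between lines. Scripts were tested on simulated data with 200 genes changed in each line. Falls to 0.25 were recovered in 96% of cases in LNCaP and 86% in PC3, and falls to 0.5 in 62% and 42%. Rises to 1.5 times were recovered in 12% and 2%, so the test missed many smaller changes in the simulation. Simulated libraries were independent, with the same spread setting for all genes and far fewer genes changed than were called in the data. The recovery rates may therefore not hold for the members. Members and lists were chosen with earlier results of these data known. Values in every library are given for the 5 largest called changes per line and class with groups apart and for the 3 largest interactions in each direction. Lists are given as counts with up to 4 examples.

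Replicate numbers come from the titles. In LNCaP, deviations of same-numbered libraries correlated at 0.254, 0.347 and 0.744. DMSO library 1 correlated more with erastin library 2 (0.612) than with its own number. No replicates were duplicates (chi-square per degree of freedom 3.66 or more). Alternatives were a pseudocount of 0.1, no filter, median-ratio and protein-coding scaling, the replicate block, limma voom on recovered reads (4444 genes called in LNCaP and 10296 in PC3) and each library left out. Leaving out replicate 3 of both LNCaP groups was added after seeing the data. Plots used matplotlib version 3.10.9.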

Additional observations from a re-analysis of the deposited data

Results flagged for a closer look

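Of the 33 synthetase genes tested for it, 10 responded differently in the 2 lines by limma's interaction, where 44.4% of all genes did. The differences, as the LNCaP log2 change minus the PC3 log2 change, were -1.23 for GARS1, -1.18 for EPRS1, -0.80 for RARS2, -0.66 for CARS1 and -0.63 for CARS2. They were 0.67 for HARS1, 0.67 for EARS2, 0.79 for LARS2, 1.18 for WARS1 and 1.18 for IARS2. Of these 10, 9 passed in every alternative setting, and EARS2 missed the threshold with protein-coding scaling (limma adjusted p = 0.0773). Line and deposited table cannot be told apart in this test, since each line has its own table and annotation release.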

How the results depend on the processing

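The number of cytosolic members that fell ranged from 13 to 16 in LNCaP and from 12 to 17 in PC3 over the alternatives, and no called member changed sign. Of the members called, 14 of 18 in LNCaP, 18 of 23 in PC3 and 9 of 10 for the difference between lines were called in every setting. Protein-coding scaling moved the median log2 change of all genes up by 0.12 in LNCaP and 0.18 in PC3. With it, 1 mitochondrial member fell in LNCaP and 4 rose in PC3, 1 cytosolic member (EPRS1) rose in PC3, and EARS2 in LNCaP and YARS2 in PC3 missed the threshold. It also turned the sign of uncalled log2 changes of CARS1 (0.105), HARS2 (0.118) and NARS2 (0.022) in PC3 and of HARS2 (0.089), MARS2 (0.0063), QARS1 (0.0866), VARS2 (0.0362) and YARS2 (0.105) in LNCaP.

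With the replicate block, LNCaP had 6893 genes called and 5 mitochondrial members lower; PC3 had 9068 genes called and 13 cytosolic members lower. In PC3 same-numbered libraries correlated at -0.38, -0.01 and -0.31, so they share only a number. Without the low-value filter 9719 genes were called for the difference between lines, over more genes tested.

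With 1 library left out, genes called ranged from 2225 to 4209 in LNCaP, the lowest without erastin library 1; 2588 were called without erastin library 2 and 2721 without DMSO library 2. In PC3 between 0 and 1 cytosolic members rose, the 1 being EPRS1 without DMSO library 1, when 12354 genes were called. Uncalled LNCaP changes near 0 then crossed it: HARS2 from -0.111 to 0.045, LARS2 from -0.0053 to 0.166, QARS1 from -0.159 to 0.0465, RARS1 from -0.0675 to 0.339, RARS2 from -0.0237 to 0.192 and YARS2 from -0.138 to 0.0861. Causes were not tested. Few reads limit what can be said of SARS2 and, in PC3, of VARS2.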
